A study of Homo sapiens with 6 samples.

Results

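The 9 genes described here belong to the pathway of the transcription factor NRF2. They were chosen by name and not by their values: *NFE2L2*, which encodes NRF2, *KEAP1*, which encodes its inhibitor, and the cytoprotective target genes *NQO1*, *HMOX1*, *GCLC*, *GCLM*, *TXNRD1*, *SRXN1* and *SLC7A11*. All 9 were present among the 21475 genes of the data set, and all 9 were expressed highly enough to be tested. RNA was sequenced from 3 WT and 3 *FGFR2* KO cell lines of HaCaT, a spontaneously immortalized line of human keratinocytes, with 1 library per cell line. The KO lines had been made by CRISPR/Cas9 editing of exon 7 of *FGFR2* and were expanded from single sorted cells, so that each is 1 clone. The WT lines carry the unedited gene and came from the same HaCaT cells. Which WT replicate is which line or clone is not given in the sources used here. All 6 lines were kept in high-glucose DMEM with 10% fetal bovine serum, and no stimulus or oxidant is named for any of them. Because each library comes from another line, the spread within a group includes differences between lines. In such bulk RNA, fewer cells expressing a gene and less RNA per cell cannot be told apart.

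NRF2 is a basic leucine zipper transcription factor that controls the defense of cells against oxidants and electrophiles. In unstressed cells KEAP1 binds NRF2 and presents it to a cullin-3 ubiquitin ligase for degradation. Electrophiles modify cysteines of KEAP1, whereupon NRF2 accumulates, pairs with small MAF proteins and binds antioxidant response elements of its target genes. Since this control acts on the protein, the mRNA levels of *NFE2L2* and *KEAP1* do not measure NRF2 activity, and the mRNAs of the target genes are commonly used as its readout. In keratinocytes the pathway protects the epidermis from UV light and reactive chemicals.

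The antioxidant response element is the DNA sequence by which these genes are classed as NRF2 targets, and its core was therefore sought in their promoters. Promoter windows of 300 bases, from 250 bases before to 50 bases after an annotated start site, were taken from RefSeq for build GRCh38.p14, and 7 of the 9 genes were matched, with 10 windows. *HMOX1* and *SLC7A11* had no window. The core TGACNNNGC followed by A, searched on both strands, was found in 3 windows, which belong to *GCLM*, *TXNRD1* and *KEAP1*. Of all 35116 promoter windows, 3.18% contained it. Sequence more than 250 bases before a start site was not searched, so a gene without a match here may carry the core elsewhere. The matches are printed below with 10 bases on either side, in the direction of the gene. Capitals mark the match, which lies on the opposite strand in each of the 3 and therefore reads as the reverse complement of the core.
GCLM: ctacgatttcTGCTTAGTCAttgtcttcca
TXNRD1: agtggatttcTGCTTTGTCAttctgactct
KEAP1: cgcccggctcTGCTTAGTCAtggtgacctg

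The *GCLM* stretch lies at chr1:93909446-93909475 on the minus strand, and its match ends 26 bases upstream of the start site. The *TXNRD1* stretch lies at chr12:104286919-104286948 on the plus strand, 94 bases upstream of one of the annotated start sites of the gene. The *KEAP1* stretch lies at chr19:10502784-10502813 on the minus strand, 23 bases upstream of an annotated start site. The core TGACNNNGC without the final A, which every match above contains, was found in 4 of the 10 windows, which belong to the same 3 genes, and in 13.3% of all windows. A match describes the letters of the promoter only, and binding of NRF2 was not measured.

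Levels are given in FPKM, the fragments of a gene per kilobase of its length and relative to the depth of the library, and were compared as log2(FPKM + 0.5). The depth of the libraries was estimated at 68000000 to 87800000 fragments. The edited gene *FGFR2* (ENSG00000066468) was at 21.6, 39.7 and 15.0 FPKM in WT replicates 1, 2 and 3 and at 3.04, 2.26 and 4.31 FPKM in KO replicates 1, 2 and 3, so that the groups did not overlap. With a log2 fold change of -2.73, it was not called after adjustment over all genes either (adjusted p = 0.261, limma). All 12 keratinocyte markers were expressed, with a summed level of 18074 to 25784 FPKM in the WT and 21595 to 38350 FPKM in the KO libraries. Summed markers of fibroblasts (7 genes) were at 7.99 to 33.2 FPKM in WT and 6.92 to 12.6 FPKM in KO, and those of endothelial cells (5 genes, with *KDR* and *CLDN5* at 0) at 18.1 to 27.2 and 5.82 to 17.5 FPKM. Those of melanocytes (6 genes, with *SOX10* at 0) and leukocytes (6 genes) remained at or below 5.58 FPKM in every library. Of the fibroblast markers, *DCN* was at 15.5 FPKM in WT replicate 2 and at most at 1.66 FPKM in the other libraries. *COL1A1* did not single out this line, with 15.0, 16.7 and 7.66 FPKM in WT and 7.67, 12.2 and 6.82 FPKM in KO. The remaining fibroblast markers averaged below 0.5 FPKM. Of the endothelial markers, *VWF* was at 18.0, 19.2 and 27.1 FPKM in WT and at 17.4, 15.6 and 5.66 FPKM in KO. *CDH5* was at 4.92 FPKM in WT replicate 2 and at most at 0.128 FPKM in the other libraries. Mitochondrial transcripts took 21.5% to 27.6% of the summed FPKM in WT and 11.9% to 23.7% in KO.

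To determine whether loss of FGFR2 altered this pathway at the mRNA level, KO and WT lines were compared for each gene. A gene was called when its adjusted p did not exceed 0.05 and its log2 fold change reached 0.5 in either direction. None of the 9 genes was called, and none had KO values that all lay above or all below the WT values. Of the 12241 genes tested, 0% were called with limma and Benjamini-Hochberg adjustment, the smallest adjusted p being 0.261. The authors, who tested counts with DESeq2, did report differing genes at a false discovery rate of at most 0.05, with *FGFR2* strongly reduced. In the values used here, 24.1% of the genes tested did not overlap between the groups, with KO above WT in 18.3% and below WT in 5.77%. Without adjustment, a p of at most 0.05 together with the minimum fold change was reached by 12.5% of all genes, and by 1 of the 9, *HMOX1*. This group contained 1251 genes that were higher in KO (10.2% of all) and 285 that were lower (2.33%). With median-of-ratios scaling this split was 785 higher and 521 lower. The log2 fold changes of the 9 genes had a median of 0.16, compared with 0.09 for all genes tested. Their adjusted p ranged from 0.287 to 0.970 with limma.

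**Figure D1:**
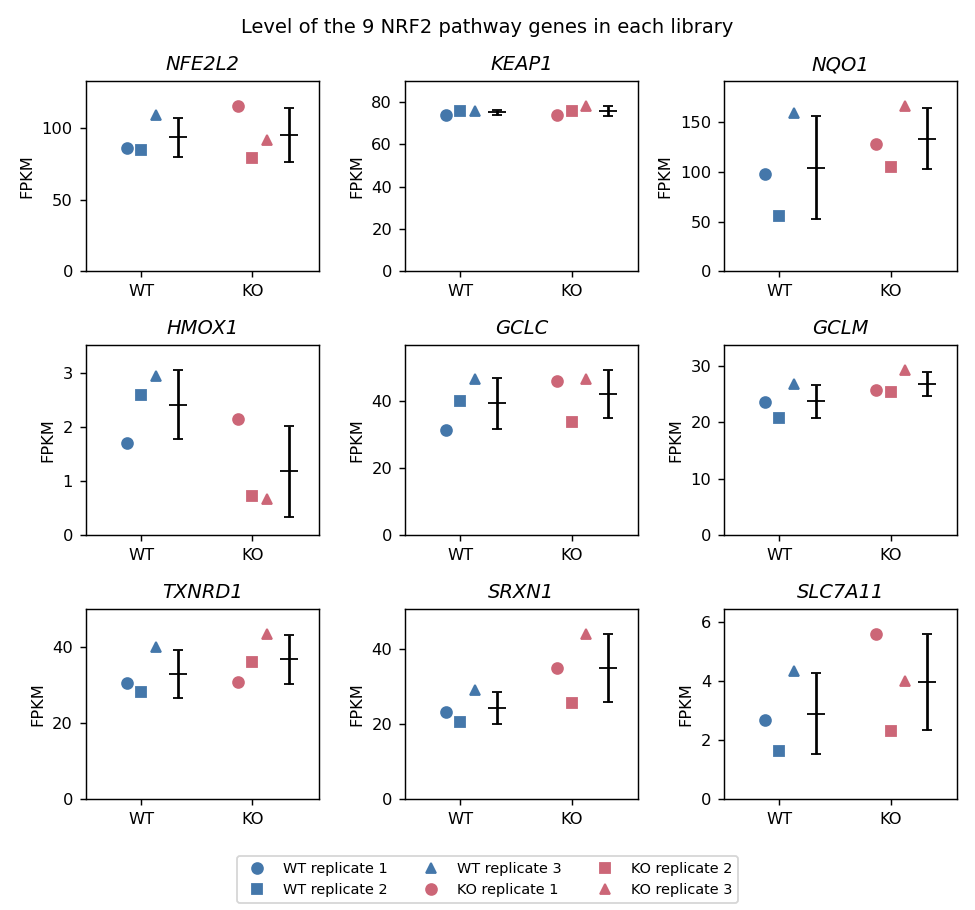
FPKM (y axis, linear, from 0) of each of the 9 genes in the 3 WT (blue) and 3 KO (red) libraries, with symbols for the replicate numbers and the group mean ± SD in black. The groups overlap in all 9 panels, *KEAP1* shows the tightest points, between 73.7 and 78.2 FPKM, and *HMOX1* is the single gene with a lower mean in KO, 1.18 against 2.42 FPKM.

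Of the regulators, *NFE2L2* (ENSG00000116044, chr2:177218667-177392756, minus strand) was at 86.3, 85.3 and 109.7 FPKM in the WT and at 116, 79.0 and 91.7 FPKM in the KO libraries. The highest and the lowest value both came from KO lines. On average *NFE2L2* was at 93.8 ± 13.8 in the WT and at 95.5 ± 18.7 FPKM in the KO lines (SD, n = 3 each). KO and WT differed by 0.02 on the log2 scale, with a 95% interval from -0.41 to 0.45 (adjusted p = 0.970, limma). The annotated extent of *NFE2L2* overlaps *HNRNPA3* and *AGPS*, which are transcribed from the opposite strand. The libraries were strand-specific, but whether the strand was used in the quantification is not given in the sources used here.

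*KEAP1* (ENSG00000079999, chr19:10486125-10503558, minus strand), the substrate adaptor that delivers NRF2 for degradation, was the most even of the 9 genes. It was at 73.7, 75.9 and 75.6 FPKM in WT and at 73.7, 75.6 and 78.2 FPKM in KO. All 6 lines therefore lay within a narrow range, with a coefficient of variation of 2.21%, compared with 15.6% for *NFE2L2*. The means were 75.1 ± 1.20 FPKM and 75.8 ± 2.25 FPKM (SD, n = 3 each). The log2 fold change was 0.01, with a 95% interval from -0.25 to 0.28 (adjusted p = 0.962, limma). This interval excludes a change of the size required for a call in either direction. With median-of-ratios scaling, which moves the median of all genes from 0.09 to -0.02, the log2 fold changes of *KEAP1* and *NFE2L2* were both -0.10, and all KO values of *KEAP1* then lay below all WT values.

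The amount of *NFE2L2* mRNA relative to *KEAP1* mRNA does not depend on the scaling between libraries. The *NFE2L2* to *KEAP1* ratio was 1.17, 1.12 and 1.45 in WT and 1.57, 1.05 and 1.17 in KO. The mean ratio was 1.25 ± 0.177 in WT and 1.26 ± 0.275 in KO (SD, n = 3 each), and the difference of 0.0148 was far smaller than the spread in either group.

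Among the targets, *NQO1* (ENSG00000181019, chr16:69706996-69726668, minus strand) encodes a quinone reductase that is widely used as an indicator of NRF2 activity. It was at 98.3, 55.8 and 159 FPKM in WT and at 129, 106 and 167 FPKM in KO. The 3 WT lines thus covered nearly the whole range, and only KO replicate 3 lay above WT replicate 3. The WT mean was 105 ± 52.1 FPKM and the KO mean 134 ± 30.8 FPKM (SD, n = 3 each). The log2 fold change was 0.45 (SE 0.36), and its 95% interval from -0.40 to 1.30 allows for either direction (adjusted p = 0.535, limma). The size of this difference depended on the lines included: it was 0.07 without WT replicate 2, the line with the high *DCN* level, 0.28 without KO replicate 3, 0.61 without KO replicate 2 and 0.82 without WT replicate 3. Whether the *DCN* and *NQO1* levels of WT replicate 2 are related was not tested.

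*HMOX1* (ENSG00000100292, chr22:35380361-35394214, plus strand) encodes heme oxygenase 1, which degrades heme to biliverdin, iron and carbon monoxide. It was expressed at the lowest level of the 9 genes, with 1.70, 2.60 and 2.95 FPKM in WT and 2.16, 0.727 and 0.666 FPKM in KO. KO replicates 2 and 3 lay below all WT lines, whereas KO replicate 1 lay between WT replicates 1 and 2. On average the WT lines had 2.42 ± 0.644 and the KO lines 1.18 ± 0.845 FPKM (SD, n = 3 each). This corresponds to a log2 fold change of -0.88 (SE 0.36), and its 95% interval from -1.72 to -0.03 did not include 0. After adjustment over all genes it did not pass (adjusted p = 0.287, limma), and the exact two-sided permutation test gave p = 0.2, where 0.1 is the smallest p that 3 against 3 libraries allow. For a gene of 1 kb a single fragment is worth 0.0114 to 0.0147 FPKM here, so that even the lowest *HMOX1* value lay well above a single fragment. The log2 fold change was -1.26 without KO replicate 1 and -0.67 without KO replicate 3. It was also -0.24 when libraries were weighted by their residual spread.

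*GCLC* and *GCLM* encode the catalytic and the modifier subunit of glutamate-cysteine ligase, the rate-limiting enzyme of glutathione synthesis. *GCLC* (ENSG00000001084, chr6:53497341-53616970, minus strand) was at 31.3, 40.1 and 46.5 FPKM in WT and at 46.1, 33.8 and 46.5 FPKM in KO. Highest values of the same size were found in both groups. Its log2 fold change was 0.10 (95% interval -0.36 to 0.56, adjusted p = 0.809, limma), and it turned to -0.0097 with median-of-ratios scaling and to -0.0090 with quantile normalization.

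*GCLM* (ENSG00000023909, chr1:93885199-93909456, minus strand) was at 23.7, 20.8 and 26.7 FPKM in WT and at 25.8, 25.4 and 29.3 FPKM in KO. WT replicate 3 exceeded KO replicates 1 and 2, and the other WT lines lay below all KO lines. Its log2 fold change was 0.18 (95% interval -0.16 to 0.52, adjusted p = 0.540, limma), and it ranged from 0.09 without WT replicate 2 to 0.27 without WT replicate 3. The *GCLC* to *GCLM* ratio was 1.32, 1.93 and 1.74 in WT and 1.79, 1.33 and 1.59 in KO. Its means of 1.66 ± 0.311 and 1.57 ± 0.228 (SD, n = 3 each) differed by less than the spread between lines, and *GCLC* exceeded *GCLM* in all 6 libraries.

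*TXNRD1* (ENSG00000198431, chr12:104215779-104350307, plus strand) encodes the cytosolic thioredoxin reductase, a selenoprotein that keeps thioredoxin reduced. It was at 30.5, 28.2 and 40.1 FPKM in WT and at 30.7, 36.0 and 43.5 FPKM in KO. As for *GCLM*, WT replicates 1 and 2 lay below all KO lines and WT replicate 3 did not. KO and WT differed by 0.16 on the log2 scale (95% interval -0.29 to 0.60, adjusted p = 0.690, limma). The value was 0.03 without KO replicate 3, 0.05 without WT replicate 2 and 0.30 without WT replicate 3. The gene *EID3* lies within *TXNRD1* on the same strand, and fragments shared between them cannot be assigned with certainty.

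*SRXN1* (ENSG00000271303, chr20:646615-653200, minus strand) encodes sulfiredoxin 1, which repairs overoxidized peroxiredoxins. It was at 23.2, 20.6 and 29.0 FPKM in WT and at 35.0, 25.7 and 44.0 FPKM in KO. KO replicates 1 and 3 lay above all WT lines, and KO replicate 2 lay below WT replicate 3. The means were 24.3 ± 4.31 and 34.9 ± 9.13 FPKM (SD, n = 3 each). The log2 fold change of 0.496 (SE 0.22), just under the minimum for a call, was the largest positive one of the 9 genes, with a 95% interval from -0.03 to 1.02 (adjusted p = 0.308, limma, and p = 0.2, exact two-sided permutation test). KO replicates 1 and 3 were also the libraries with the lowest mitochondrial shares, 15.8% and 11.9%, and with scaling to the nuclear genes the log2 fold change was 0.42. The tested genes of chromosome 20, where *SRXN1* lies, had a median log2 fold change of 0.15. With chromosome medians removed, that of *SRXN1* was 0.31. Without KO replicate 3 the log2 fold change was 0.31, and without KO replicate 2 it was 0.70 and the groups did not overlap. A further annotated protein-coding gene, ENSG00000270299, overlaps *SRXN1* on the same strand, and fragments shared between them cannot be assigned with certainty.

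*SLC7A11* (ENSG00000151012, chr4:138164097-138242349, minus strand) encodes the light chain of the cystine/glutamate antiporter xCT, which supplies cysteine for glutathione. It was at 2.69, 1.62 and 4.33 FPKM in WT and at 5.57, 2.32 and 4.01 FPKM in KO. The highest value came from a KO line and the lowest from a WT line, and the remaining values were interspersed. Its log2 fold change was 0.41 (SE 0.38), with a 95% interval from -0.47 to 1.30 (adjusted p = 0.591, limma). It was 0.12 without WT replicate 2, 0.16 without KO replicate 1, and 0.71 without WT replicate 3 and also without KO replicate 2.

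**Figure D2:**
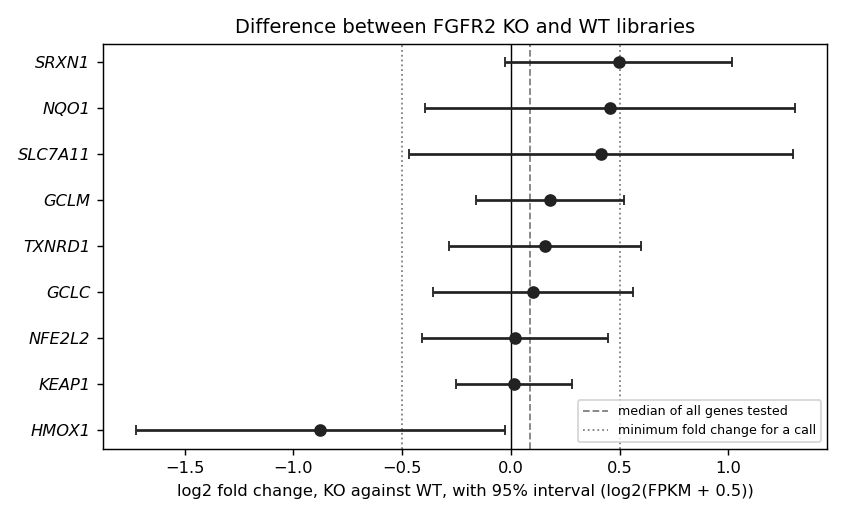
Log2 fold change of KO against WT (x axis, on log2(FPKM + 0.5)) of each of the 9 genes, with its 95% interval from limma. The solid line marks 0, the dashed line the median of all genes tested (0.09) and the dotted lines the minimum fold change of 0.5 in either direction. The interval of *HMOX1*, from -1.72 to -0.03, is the only one that does not include 0, and the shortest is that of *KEAP1*.

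The intervals differ widely in length, and so do the changes that they include. They are intervals of single genes without adjustment over all genes, and their ends do not state which changes could have been called. In this comparison 8 of the 9 genes had a log2 fold change above 0, as had 60.6% of all genes tested. The exception was *HMOX1*, and *NFE2L2*, *KEAP1* and *GCLC* also turned below 0 under other scalings. For *NQO1* and *SLC7A11* the upper ends of the intervals correspond to 2.47-fold and 2.45-fold higher levels in KO, and for *SRXN1* to a 2.02-fold higher level. For *GCLM* the upper end corresponds to 1.43-fold and for *KEAP1* to 1.21-fold.

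The 9 genes also differed in abundance within HaCaT cells. Ordered by the mean of the 6 libraries, *NQO1* was highest with 119 FPKM, above 92.8% of the genes tested, followed by *NFE2L2* with 94.6 and *KEAP1* with 75.4 FPKM. *GCLC* (40.7 FPKM), *TXNRD1* (34.8), *SRXN1* (29.6) and *GCLM* (25.3) formed a middle group. *SLC7A11* with 3.42 and *HMOX1* with 1.80 FPKM were far lower, the latter above only 11.1% of the genes tested. Neighbors in this order did not always keep it in each library. *NQO1* exceeded *NFE2L2* in 5 of 6 libraries, *GCLC* exceeded *TXNRD1* in 5 of 6, *TXNRD1* exceeded *SRXN1* in 4 of 6, *SRXN1* exceeded *GCLM* in 4 of 6 and *SLC7A11* exceeded *HMOX1* in 5 of 6. The steps from *NFE2L2* to *KEAP1*, from *KEAP1* to *GCLC* and from *GCLM* to *SLC7A11* were present in all 6 libraries.

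Several targets varied in a similar manner from line to line, with high and low lines in both groups. Leaving out *HMOX1*, WT replicate 2 had the lowest level of 5 of the 6 targets, and WT replicate 1 that of *GCLC*. KO replicate 3 had the highest level of 4 of them. All 6 lay above their own mean in WT replicate 3 and in KO replicate 3, 5 did so in KO replicate 1, 2 in KO replicate 2, and 0 in WT replicates 1 and 2. The median deviation from the mean of the gene, on the log2 scale, was -0.20, -0.37 and 0.21 in the WT and 0.20, -0.12 and 0.31 in the KO libraries. Thus, WT replicate 3 resembled the KO lines with higher levels, and KO replicate 2 was closer to WT replicate 1.

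**Figure D3:**
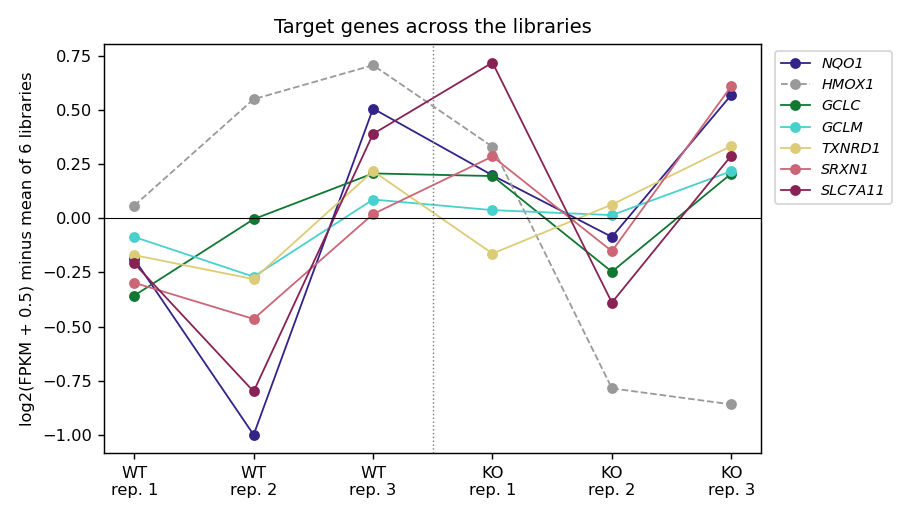
Deviation of each of the 7 targets from its mean over the 6 libraries (y axis, log2(FPKM + 0.5)), by library (x axis), with lines that only join the points of a gene. Apart from *HMOX1* (dashed), all targets lie above 0 in WT replicate 3 and KO replicate 3 and at or below 0 in WT replicates 1 and 2.

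This line-to-line pattern bears on the comparison of the genotypes. Without WT replicate 3, the KO values of *NQO1*, *GCLM*, *TXNRD1* and *SRXN1* all lay above the WT values, with log2 fold changes of 0.82, 0.27, 0.30 and 0.63, while 28.4% of all genes tested did so. Without WT replicate 1 (log2 fold change -1.07) or without KO replicate 1, the KO values of *HMOX1* all lay below those of WT. Of all genes, 28.2% and 35.4% then did not overlap in either direction, and KO lay below WT in 1022 and 1330 of the 12241 genes. Without WT replicate 2 and without KO replicate 3, 0 of the 9 genes separated the groups, compared with 35.8% and 26.6% of all genes. Without KO replicate 2, the KO values of *SRXN1* all lay above the WT values, as did those of 31.4% of all genes tested.

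To describe the pattern further, each target was standardised over the 6 libraries and the mean profile of the 7 targets was compared with all other genes. These correlations describe 6 libraries that share their lines and their depth, and no p is given. *NQO1* (r = 0.925), *SLC7A11* (r = 0.90), *GCLM* (r = 0.887) and *SRXN1* (r = 0.884) followed the profile most closely, to which each of them contributes. *GCLC* reached 0.783 and *TXNRD1* 0.745. *NFE2L2*, which is not part of the profile, had an r of 0.725 and *KEAP1* of 0.303, whereas *HMOX1*, although part of it, had an r of -0.08.

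Outside the 9 genes, the highest correlations were those of *PABPC1* (r = 0.991), which encodes the cytoplasmic poly(A)-binding protein, *C1orf74* (r = 0.990), *PDGFB* (r = 0.989), which encodes a platelet-derived growth factor chain, *AP1S1* (r = 0.982), which encodes a subunit of a clathrin adaptor complex, and *DYM* (r = 0.981). *PDGFB*, for example, was at 3.17, 2.58 and 4.56 FPKM in WT and at 4.46, 3.11 and 4.64 FPKM in KO, with the lowest value in WT replicate 2 and the highest in KO replicate 3, as for most targets. In all, 227 genes, or 1.86% of the others tested, reached an r of at least 0.9.

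The wider pathway was described with 7 lists that contain 80 further genes, of which 77 were present in the tables and 74 were tested. None was called at the adjusted threshold. Without adjustment 9 were higher and 3 lower in KO, together 16.2%, beside 12.5% of all genes. In 14 of them (18.9%, beside 24.1% of all genes) the groups did not overlap, with 9 above and 5 below WT. The median log2 fold change of the 74 genes was 0.06, and 42 of them had a value above 0.

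Among 12 regulators and partners of NRF2, all tested, 1 was higher without adjustment, beside 10.2% of all genes tested. This was *NFE2L3*, which encodes the related factor NRF3, with 0.733, 1.37 and 1.07 FPKM in WT and 2.57, 2.60 and 5.97 FPKM in KO. All KO lines lay above all WT lines, and the log2 fold change was 1.36 (SE 0.34, adjusted p = 0.261, limma). *NFE2L1*, which encodes NRF1, was the most abundant of this group, with 655 ± 55.0 FPKM in WT and 564 ± 115 FPKM in KO (SD, n = 3 each). *SQSTM1*, which encodes the autophagy receptor p62 that binds KEAP1, was at 255, 464 and 178 FPKM in WT and at 191, 230.3 and 145 FPKM in KO, with WT replicate 2 far above the rest (log2 fold change -0.58, adjusted p = 0.418, limma). The small MAF gene *MAFG* lay above WT in all KO lines, with a log2 fold change of 0.22. *BTRC*, a component of the KEAP1-independent degradation of NRF2, lay below WT in all KO lines, with a log2 fold change of -0.21. Neither reached an unadjusted p of 0.05. *MAFG* lies on chromosome 17 and *BTRC* on chromosome 10, whose tested genes had median log2 fold changes of 0.17 and -0.16. The groups did not overlap for 24.1% of all genes tested.

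In the glutathione and thioredoxin systems 12 of 13 genes were tested, and the median log2 fold change was 0.25. *SLC3A2*, which encodes the heavy chain that pairs with the *SLC7A11* product, was at 148, 144 and 224 FPKM in WT and at 332, 179 and 357 FPKM in KO (log2 fold change 0.72, adjusted p = 0.290, limma). *PRDX1*, a peroxiredoxin that sulfiredoxin repairs, was at 362, 341 and 446 FPKM in WT and at 582, 432 and 689 FPKM in KO (log2 fold change 0.55, adjusted p = 0.276, limma). For both genes KO replicate 2 lay within the range of WT, as for *SRXN1*. *GSTA4*, a glutathione S-transferase, was at 3.24, 3.92 and 3.38 FPKM in WT and at 2.61, 2.19 and 0.906 FPKM in KO. Its groups did not overlap (log2 fold change -0.82, adjusted p = 0.273, limma). *TXN*, which encodes the thioredoxin reduced by the *TXNRD1* product, was the most abundant and varied between 377 and 1047 FPKM within the WT group alone.

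All 19 genes of detoxification and export were tested, and 3 were higher and 1 lower without adjustment. Of all genes tested, 10.2% were higher and 2.33% lower in this way. *NQO2*, the paralog of *NQO1*, was at 12.3, 8.96 and 15.7 FPKM in WT and at 17.9, 16.2 and 20.2 FPKM in KO. Here all KO lines lay above all WT lines (log2 fold change 0.56, adjusted p = 0.274, limma). The exporter gene *ABCG2* was at 1.84 ± 0.980 FPKM in WT and at 4.50 ± 1.90 FPKM in KO (SD, n = 3 each), a log2 fold change of 1.11 (adjusted p = 0.265, limma). The aldo-keto reductase gene *AKR1B10* was at 24.8, 25.4 and 19.7 FPKM in WT and at 7.53, 19.8 and 4.11 FPKM in KO, with KO replicate 2 close to WT (log2 fold change -1.38, adjusted p = 0.261, limma). *AKR1C2*, the most abundant gene of this list, was at 151, 103 and 223 FPKM in WT and at 227, 97.8 and 82.6 FPKM in KO. Since *AKR1C1*, *AKR1C2* and *AKR1C3* are closely related paralogs, their separate levels may be uncertain. All 3 were highest in KO replicate 1 and next highest in WT replicate 3.

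Of 6 genes that supply NADPH, 0 passed without adjustment, and the most abundant, *TKT*, a transketolase of the pentose phosphate pathway, was at 419 ± 19.8 FPKM in WT and 328 ± 20.9 FPKM in KO (SD, n = 3 each). The KO lines lay below all WT lines, although the log2 fold change of -0.36 did not reach the minimum (adjusted p = 0.274, limma). Of the heme and iron genes 6 of 7 were tested and 0 passed, and *FTH1*, which encodes the ferritin heavy chain and has many processed pseudogenes, was at 8231 ± 1082 FPKM in WT and 6065 ± 1313 FPKM in KO (log2 fold change -0.46, adjusted p = 0.430, limma). Of 5 other NRF2-responsive genes 3 were tested and 0 passed. The most abundant of them, *TRIM16*, had a log2 fold change of 0.13.

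Finally, 18 antioxidant enzymes that are not among the 9 genes were examined, of which 16 were tested. Without adjustment 3 were higher and 1 lower, beside 10.2% and 2.33% of all genes tested. *SOD1*, the cytosolic superoxide dismutase, was at 79.1, 52.0 and 96.5 FPKM in WT and at 105, 113 and 147 FPKM in KO (log2 fold change 0.71, adjusted p = 0.261, limma). *PRDX4*, the peroxiredoxin of the endoplasmic reticulum, was at 33.3, 34.2 and 43.5 FPKM in WT and at 54.2, 46.8 and 85.8 FPKM in KO (log2 fold change 0.70, adjusted p = 0.261, limma). In both genes the KO lines lay above all WT lines. *SOD1* lies on chromosome 21, whose 121 tested genes had a median log2 fold change of 0.41, beside 0.09 for all genes tested. The cause of this shift was not tested. *GPX1*, a selenium-dependent glutathione peroxidase, had a log2 fold change of 0.76 (adjusted p = 0.263, limma) with 1 overlapping pair of lines, WT replicate 3 at 72.9 and KO replicate 2 at 70.5 FPKM. *PRDX5*, the most abundant of this list, was at 786 ± 225 FPKM in WT and 563 ± 51.5 FPKM in KO (SD, n = 3 each), with all KO lines below WT (log2 fold change -0.45, adjusted p = 0.338, limma). The gene that was lower without adjustment was *SESN3*, at 39.2 ± 12.2 FPKM in WT and 23.7 ± 6.36 FPKM in KO (SD, n = 3 each). Its groups overlapped (log2 fold change -0.70, adjusted p = 0.271, limma).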

How the data were processed

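RNA-seq of 3 WT and 3 *FGFR2* KO HaCaT lines was analysed, with groups and replicate numbers from the sample labels. The FPKM values per gene were deposited by the authors. The submitters' processing notes name fastp 0.20.0 and kallisto 0.46.1, and the authors used GRCh38.p13 with GENCODE release 37. How kallisto output became FPKM is not given in the sources used here. The authors tested counts with DESeq2. Since 61.9% of 4281 low values were whole fragments within 0.02 (4% by chance), counts were not recovered, and limma was used instead. Of 21493 genes, 18 Y copies of pseudoautosomal genes were left out, and 21400 of the remaining 21475 received a symbol, and the named genes a position, from GENCODE release 44 (GRCh38).

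The 12241 genes that averaged 0.5 FPKM or more were fitted in limma 3.58.1 (R 4.3.3) as log2(FPKM + 0.5), with a mean-variance trend and Benjamini-Hochberg adjustment over all of them. Genes were called when the adjusted p did not exceed 0.05 and the log2 fold change reached 0.5 in either direction. Single genes were also tested with an exact permutation test. The script was tested on simulated data. Depth was estimated from the steps between low FPKM values, and covers counting error only.

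Named genes were *FGFR2*, the 9 genes, up to 3 genes per list with the smallest unadjusted p among those that reached this fold change, the most abundant gene per list, and the 5 genes most correlated with the mean target profile. *MAFG*, *BTRC*, *SESN3*, *AKR1C1*, *AKR1C3*, *DCN*, *COL1A1*, *VWF*, *CDH5*, *KDR*, *CLDN5* and *SOX10* were named after their values were seen, as were *HNRNPA3*, *AGPS*, *EID3* and ENSG00000270299 for their overlap. The genes and lists were chosen with earlier results of these data known. *TRIM16L*, *LUCAT1* and *SOD2* were not analysed here, and *MGST1*, *SLC40A1* and *GPX3* were below the minimum level. Alternatives were pseudocounts of 0.1 and 1, no minimum level, a minimum mean of 2 FPKM, TPM, median-of-ratios and quantile scaling, no mean-variance trend, library weights, a replicate block, removal of chromosome medians, leaving out each library in turn and, chosen after seeing the data, scaling to nuclear genes.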

Additional observations from a re-analysis of the deposited data

How the results depend on the processing

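None of the 9 genes was called under any alternative, the lowest adjusted p being 0.0558 (*SRXN1*, library weights, limma). Of 161 log2 fold changes recomputed, 146 kept their direction and 15 turned below 0, and in all of them the adjusted p stayed above 0.05, although some crossed the minimum fold change of 0.5. *GCLC* did so with median-of-ratios scaling (-0.0097), quantile normalization (-0.0090) and without WT replicate 1 (-0.050). *KEAP1* did so with chromosome medians removed (-0.083), median-of-ratios scaling (-0.099), quantile normalization (-0.10), scaling to nuclear genes (-0.066) and without KO replicate 3 (-0.0081). *NFE2L2* did so with chromosome medians removed (-0.11), median-of-ratios scaling (-0.095), quantile normalization (-0.10), scaling to nuclear genes (-0.061), and without KO replicate 1 (-0.13), WT replicate 1 (-0.036) or WT replicate 2 (-0.045). When a library was left out, the log2 fold change ranged from -0.050 to 0.25 for *GCLC*, from -0.0081 to 0.034 for *KEAP1* and from -0.13 to 0.15 for *NFE2L2*. Of the 9 genes, 1 (*KEAP1*) did not overlap with median-of-ratios scaling and with quantile normalization, beside 2870 and 2858 of the 12241 genes tested, and 0 to 4 did not overlap when a library was left out, beside 26.6% to 44.5% of all genes. *HMOX1* was not tested at a minimum mean of 2 FPKM. Without adjustment *HMOX1* did not pass with no filter, with library weights or with the replicate block, nor without WT replicate 2, WT replicate 3, KO replicate 2 or KO replicate 3. *SRXN1* passed without adjustment with library weights (log2 fold change 0.51), without KO replicate 2 (0.70) and without WT replicate 3 (0.63). *NQO1* did so without WT replicate 3 (0.82).

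Over all genes, 0 were called in limma (2065 at an unadjusted p of at most 0.05) and 0 when a library was left out, but 1396 with library weights, which gave WT replicate 1 89.7% of the weight of its group. *FGFR2* was then called as well (-2.66, adjusted p = 0.0191, limma). The cause was not tested. With the replicate block 0 genes and 0 of the 9 were called. Over all genes, deviations of samples with the same number correlated at -0.206, 0.225 and 0.049. Those of samples with different numbers correlated at -0.367 to 0.294. These values cannot decide whether the numbers pair the samples. With the block the SE fell from 0.36 to 0.20 for *NQO1* and from 0.22 to 0.15 for *SRXN1*. It rose from 0.36 to 0.40 for *HMOX1* and from 0.114 to 0.135 for *KEAP1*. The *NFE2L2* to *KEAP1* difference ranged from -0.140 to 0.124 and the *GCLC* to *GCLM* difference from -0.268 to 0.0364 when a library was left out. With 3 lines per group, differences of the size of the spread between lines could not be called. Without library weights, larger ones were not called either: *FGFR2*, with a log2 fold change of -2.73, had an adjusted p of 0.261 (limma). That none of the 9 genes was called therefore does not bound the size of their differences.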
